A study of Mus musculus with 6 samples.

Results

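The genes described here are 38 genes of cell cycle progression and proliferation, taken by name: the G1 cyclins with the transcription factor E2f1, the factors of DNA replication, the cyclins, kinases and checkpoint proteins of G2 and mitosis, and the motors, centromere proteins and proliferation marks. Every probe set annotated to 1 of these genes alone was used, which gave 93 of the 45037 probe sets on the array and 37 of the 38 genes, of 18193 genes measured in all. Ccnb1 had no probe set of its own here and is not reported. RNA came from alveolar type II epithelial cells of the lungs of mice aged 8 weeks, each RNA a pool of 3 mice, with 3 pools of Stat3Δ/Δ mice and 3 pools of control mice, each hybridized to its own MOE430 array.

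Stat3Δ/Δ mice carried SP-C-rtTA together with (tetO)7CMV-Cre on a Stat3flx/flx background, so that doxycycline turned on Cre where the SP-C promoter is active, in the respiratory epithelium, and exon 21 of Stat3 was lost before birth. The controls were littermates without the deletion; 1 sample label calls them double transgenics for SP-C-rtTA and (tetO)7CMV-Cre, the study's methods also name mice with 1 transgene and Stat3flx/flx, and another label names the triple transgenic line for them as well, so that their exact genotype is not settled here. In both groups the dams were fed doxycycline from embryonic life into the postnatal period. Type II cells were isolated with collagenase and differential plating, and the study's methods name residual alveolar macrophages as the main other cell. The methods also report that purity, judged by a stain, and cell number did not differ between the groups. The deletion was directed at respiratory epithelial cells, and Stat3 in other cells was not measured here.

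Cells in the adult lung mostly rest, and type II cells, which make surfactant, are the progenitors that divide when the alveolus is injured. A dividing cell first makes D-type and E-type cyclins, which release E2F factors from the retinoblastoma protein. E2F then turns on the genes of DNA replication, and a later wave of genes, many of them with CCAAT boxes and cell cycle homology regions (CHR) in their promoters, drives mitosis. Stat3 is a transcription factor activated by cytokines, and Ccnd1 and Myc are among its known targets in other cells.

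Values are log2 of the array signal plus 69.9 (a pseudocount set at the 20th percentile of signals), quantile normalized between arrays; a difference of 1 on this scale is a doubling, and the change of a dim probe set is understated. Each gene is given by its brightest probe set unless stated. Differences are Stat3Δ/Δ minus control with the standard error (SE) of the limma model, and adjusted p-values are Benjamini-Hochberg values from limma over the 45037 probe sets. The threshold for a call was a p of at most 0.05, a false discovery rate of at most 10% and a fold change of at least 1.5. A probe set is termed dim where its mean signal lay below 333.9, the median over all probe sets. Levels of different probe sets cannot be set against each other. The sample titles carry numbers whose meaning the sources used here do not give. By the first number, Stat3Δ/Δ pools 1 and 2 go with control pool 3. Control pools 1 and 2 have another, and Stat3Δ/Δ pool 3 has its own. By the second number the 3 arrays that share the first differ, while control pools 1 and 2 have the same. Differences were therefore also taken among the 3 arrays of the shared first number, termed the shared title number. Control pool 3 is the only control among them, and they are not known to be a batch.

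No cell cycle gene passed these thresholds: 0 of the 93 probe sets were called, against 1 of 45037 over the array (0.00222%), and the smallest adjusted p among the 93 was 0.517. At an unadjusted p of at most 0.05 with the same fold change, 3 probe sets of the 93 lay higher (4.14% over the array) and 5 lay lower (4.22%), counts close to the background. Among the 37 genes, 0 lay higher by that rule (2.15% of all genes) and 1 lay lower (5.54%). The median log2 difference of the 37 genes was -0.30, with 29 of 37 below 0, against -0.085 and 59.3% over all genes. The whole range ran from -0.69 for Mcm2 to 0.71 for Tyms, with 29 of the 37 genes above the dim limit. Of the 28 genes with several probe sets, 13 had all of them below 0, 2 (Kif23 and Ttk) all above 0, and 13 had both signs. In such bulk RNA, fewer cells of a type and less RNA per cell cannot be told apart.

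1 array stood apart for these genes. Control pool 2 was the highest of the 6 arrays for 28 of the 37 genes (75.7%), while over all genes it was highest for 17.6%, and it was the lowest array for 0 of the 37 (11.4% of all genes). By probe set it was the highest for 51 of 93 (54.8%), against 15.7% over the array. It lay above the mean of the other control pools for 35 of 37 genes, with a median excess of 0.84, against 0.014 over all genes. The median level of the 37 genes was 9.61, 9.53 and 9.70 in the Stat3Δ/Δ pools, against 9.41, 10.50 and 9.61 in the control pools. Apart from control pool 2, the arrays thus lay within a narrow band in which the groups overlapped.

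**Figure D1:**
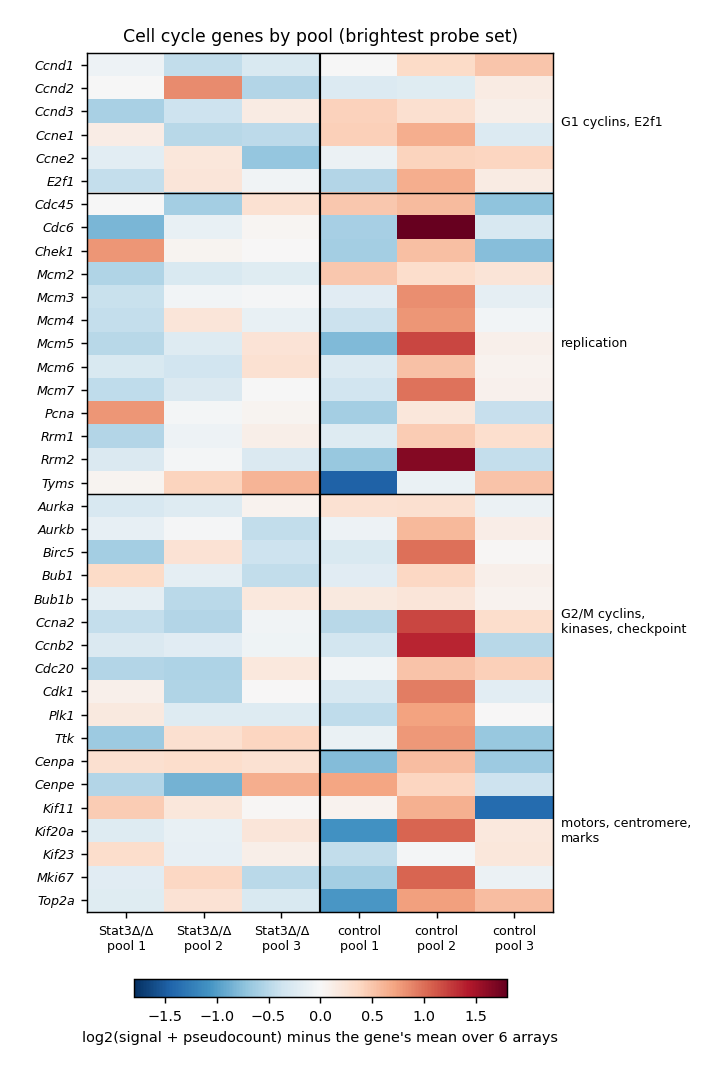
Level of the 37 cell cycle genes (rows, brightest probe set, grouped by role) in the 3 Stat3Δ/Δ pools and the 3 control pools (columns), as log2(signal + pseudocount) minus the gene's mean over the 6 arrays, red above and blue below it. The column of control pool 2 is the reddest, with 28 of 37 genes at their highest there, while Ccnd1 and Mcm2 are bluer in all 3 Stat3Δ/Δ columns than in any control column.

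Without control pool 2 the median difference of the 37 genes was 0.092, with 16 below 0 and 21 above, so that the direction of the list turned. Of the control pools that then remain, control pool 1 was the lowest array for 11 of the 37 genes. Over all genes it was the lowest for 2551 of 18193. The turned direction thus rests in part on a low control pool. Among the arrays of the shared title number, which leave control pool 2 out as well, the median was -0.18, with 25 below 0. Among all genes 58.1% lay below 0 without this pool and the median was -0.078. Spread between replicates followed the same array: the median SD of the 37 genes was 0.33 over the Stat3Δ/Δ pools and 0.60 over the control pools, against 0.34 and 0.31 over all genes.

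The stretches before the start sites of the genes with the greatest excess in control pool 2 are shown because these genes moved together there. Of the 38 genes, 31 matched an entry of RefSeq (mouse build GRCm38.p6). The genes with the largest excess over the other control pools, Cdc6, Rrm2, Ccnb2 and Mcm5, are given. Mcm2 is set beside them. It did not follow control pool 2 by its brightest probe set, though that pool was the highest array on its second. Each line holds the 250 bases before the start site, 5′ to 3′ on the gene's strand. Capitals mark matches, on either strand, to a CCAAT box, spelled by its name, an E2F site of the letters TTTNNCGC, a CHR of the letters TTTGAA and a STAT site of the letters TTCNNNGAA; where 2 E2F matches overlap, in Mcm5, the capitals run together.
Cdc6: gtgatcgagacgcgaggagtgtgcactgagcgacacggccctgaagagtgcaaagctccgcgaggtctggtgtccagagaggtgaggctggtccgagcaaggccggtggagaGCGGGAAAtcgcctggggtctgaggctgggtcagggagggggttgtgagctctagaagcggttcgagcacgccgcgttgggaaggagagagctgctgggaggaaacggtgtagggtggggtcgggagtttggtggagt
Rrm2: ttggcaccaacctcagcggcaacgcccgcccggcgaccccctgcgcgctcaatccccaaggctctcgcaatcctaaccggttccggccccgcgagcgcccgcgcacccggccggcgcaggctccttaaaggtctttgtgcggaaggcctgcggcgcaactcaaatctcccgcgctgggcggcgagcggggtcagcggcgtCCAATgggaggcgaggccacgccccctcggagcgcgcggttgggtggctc
Ccnb2: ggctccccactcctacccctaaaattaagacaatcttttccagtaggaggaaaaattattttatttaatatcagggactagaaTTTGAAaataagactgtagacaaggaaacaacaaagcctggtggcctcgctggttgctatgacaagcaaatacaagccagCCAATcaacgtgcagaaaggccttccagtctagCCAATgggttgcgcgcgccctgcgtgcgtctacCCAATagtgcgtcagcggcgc
Mcm5: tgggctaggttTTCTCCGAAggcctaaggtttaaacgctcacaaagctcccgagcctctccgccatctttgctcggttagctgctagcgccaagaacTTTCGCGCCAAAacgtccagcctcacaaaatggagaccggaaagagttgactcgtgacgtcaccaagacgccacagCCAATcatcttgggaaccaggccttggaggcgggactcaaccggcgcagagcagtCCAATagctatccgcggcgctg
Mcm2: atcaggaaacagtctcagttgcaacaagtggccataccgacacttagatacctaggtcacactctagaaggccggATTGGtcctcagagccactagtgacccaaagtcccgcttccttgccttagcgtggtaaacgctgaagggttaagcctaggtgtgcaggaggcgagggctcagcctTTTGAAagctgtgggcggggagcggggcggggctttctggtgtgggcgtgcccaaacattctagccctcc
The stretches lie at chr11:98907901-98908150 (plus strand) for Cdc6, chr12:24708004-24708253 (plus) for Rrm2, chr9:70421555-70421804 (minus) for Ccnb2, chr8:75109259-75109508 (plus) for Mcm5 and chr6:88898781-88899030 (minus) for Mcm2. Ccnb2 held 3 CCAAT boxes within 87 bases of the start and a CHR farther out, and Mcm5 held 2 CCAAT boxes, 2 overlapping E2F matches and a STAT match. Cdc6 had an E2F match but no CCAAT box, while Rrm2 had 1 CCAAT box only. Mcm2 had 1 CCAAT box and 1 CHR.

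CCAAT boxes stood before 25 of the 31 genes (80.6%), against 37.5% of 27025 genes searched over the same length. E2F matches stood before 5 of 31 (16.1%, against 4.94%), CHR matches before 8 (25.8%, against 18.3%) and STAT matches before 2 (6.45%, against 8.13%). Of the 31 matched genes, 23 were highest in control pool 2, whatever their motifs. These 23 held all 5 genes with an E2F match, 7 of the 8 with a CHR and 19 of the 25 with a CCAAT box. Both the 31 and the 25 include Ccnb1, which had no probe set. A tie between a motif and the pool was not tested. A match is a description of letters in this window and shows no binding.

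The G1 cyclins and E2f1 were the group with the lowest median, -0.50, with 5 of 6 genes below 0. Leaving out control pool 2 moved this median to -0.37, and no other role group lay as far from 0 without that pool. Some marker lists of other cell types lay lower still: the 5 mesothelial genes had a median of -0.91, with 5 of 5 below 0 (-1.02 without control pool 2), and the 8 measured ciliated genes one of -0.72, with 7 of 8 below 0 (-0.66 without it). The part of such cells in the levels of these genes was not tested.

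Ccnd1, cyclin D1, the partner of Cdk4 and Cdk6 in early G1, lay lower on every Stat3Δ/Δ array than on any control array with all 3 of its probe sets. The brightest measured 13.92, 13.57 and 13.74 in the Stat3Δ/Δ pools, against 14.01, 14.36 and 14.52 in the control pools. The difference was -0.55 (SE 0.26, adjusted p = 0.622, limma), which did not pass the test, and the groups nearly met at Stat3Δ/Δ pool 1 and control pool 1. The second probe set gave 12.95, 12.58 and 12.95 in Stat3Δ/Δ pools, against 13.45, 13.33 and 13.96 in control pools, a difference of -0.76 (SE 0.28, adjusted p = 0.540). The third gave 12.58, 12.24 and 12.50 in Stat3Δ/Δ pools and 12.90, 13.11 and 13.30 in control pools, a difference of -0.66 (SE 0.25, adjusted p = 0.551). On these probe sets the gap between the groups was wider. On dropping each pool the brightest gave -0.68 to -0.44. Among the arrays of the shared title number the 3 differences were -0.77, -1.19 and -0.89. The 1 control array there, control pool 3, was the highest of all arrays on each of the 3 probe sets, which widens these differences. Probe sets of 1 gene read the same RNA and are no replicates of each other. Among the 93 probe sets 6 lay lower without overlap (7.66% over the array) and 2 lay higher (5.99%).

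Ccnd2, cyclin D2, had 7 probe sets, and Stat3Δ/Δ pool 2 was the highest array on 7 of 7. The brightest measured 13.02, 13.87 and 12.50 in the Stat3Δ/Δ pools, against 12.78, 12.81 and 13.17 in the control pools. The difference was 0.21 (SE 0.37, adjusted p = 0.909), and it was -0.16 without Stat3Δ/Δ pool 2. The groups overlapped. The 13 measured macrophage markers also had their highest mean in that pool, 12.79, 13.51 and 12.68 in the Stat3Δ/Δ pools against 12.20, 12.55 and 12.78 in the control pools, with 13 of 13 genes above 0 and a median difference of 0.51; the part of these cells in the level of Ccnd2 was not tested.

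Ccnd3, cyclin D3, had 3 probe sets. The brightest measured 11.51, 11.72 and 12.24 in the Stat3Δ/Δ pools, against 12.52, 12.38 and 12.20 in the control pools, a difference of -0.54 (SE 0.28, adjusted p = 0.651). The second measured 8.00, 7.30 and 9.40 in the Stat3Δ/Δ pools, against 9.24, 8.51 and 9.41 in the control pools, a difference of -0.82 (SE 0.52). These groups overlapped at Stat3Δ/Δ pool 3. The third, which was dim, measured 8.92, 8.93 and 9.01 in Stat3Δ/Δ pools, against 8.63, 7.17 and 7.64 in control pools, a difference of 1.14 (SE 0.38, adjusted p = 0.517). The 2 probe sets above the dim limit thus lay below 0 and the dim one above it.

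**Figure D2:**
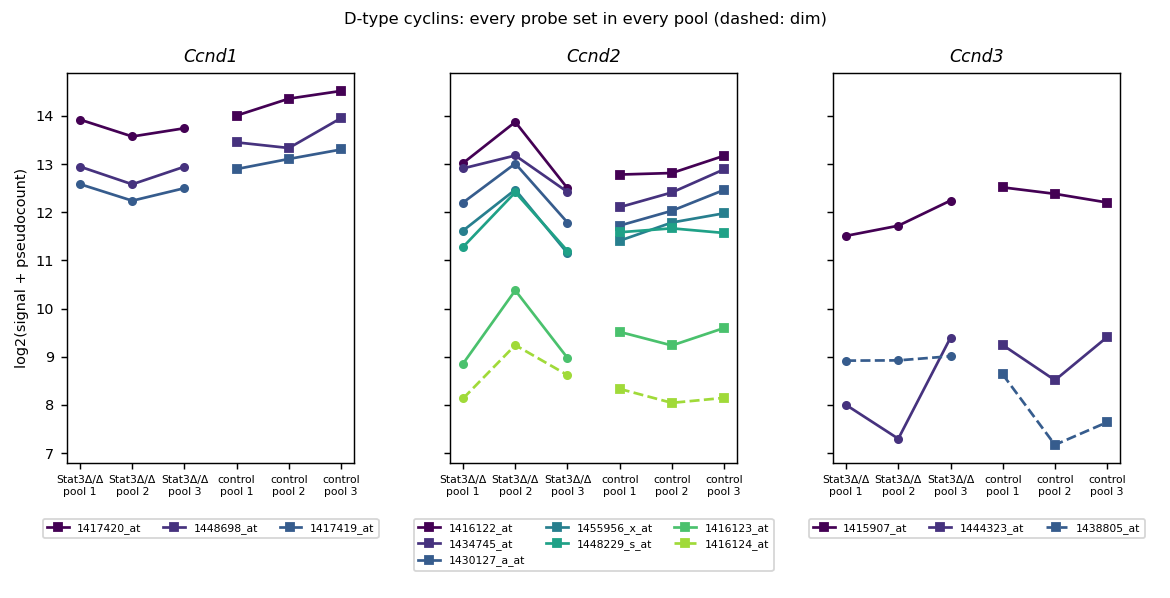
Every probe set of Ccnd1, Ccnd2 and Ccnd3 (one colour each, lines join the points of a probe set and stand for no order) as log2(signal + pseudocount) in the 3 Stat3Δ/Δ pools (circles) and the 3 control pools (squares); dashed lines are dim probe sets. All 3 lines of Ccnd1 lie lower on the Stat3Δ/Δ side, the 7 of Ccnd2 peak in Stat3Δ/Δ pool 2, and the dim line of Ccnd3 runs against the brightest.

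The E-type cyclins, which carry the cell into S phase with Cdk2, had differences of -0.56 (SE 0.33) for Ccne1 and -0.46 (SE 0.31) for Ccne2, with overlapping groups. E2f1, the activator of replication genes, was dim on all 3 probe sets. The brightest measured 8.11, 8.76 and 8.48 in the Stat3Δ/Δ pools and 8.02, 9.20 and 8.68 in the control pools (-0.18, SE 0.35, adjusted p = 0.917). The second measured 7.82, 8.34 and 7.15 in Stat3Δ/Δ pools and 8.71, 9.51 and 8.46 in control pools (-1.12, SE 0.40, adjusted p = 0.532), without overlap, while the third had a difference of 0.23. No single direction holds for E2f1 over its probe sets, and that of the brightest was 0.10 without control pool 2.

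The genes of DNA replication had a median of -0.31, with 10 of 13 below 0, and of 0.095 without control pool 2. 9 of the 13 were highest in that pool.

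Mcm2, a subunit of the MCM helicase that opens the double helix, did not follow control pool 2 by its brightest probe set. That probe set measured 11.05, 11.32 and 11.37 in the Stat3Δ/Δ pools, against 12.08, 11.90 and 11.81 in the control pools. The groups did not overlap, and the difference of -0.69 (SE 0.24, adjusted p = 0.532) was -0.70 without control pool 2 and between -0.75 and -0.59 on dropping each pool. It and Ccnd1 were the 2 genes of 37 that lay lower without overlap by their brightest probe set, a pattern that 10.2% of all genes had; 0 of 37 lay higher without overlap (4.23% of all genes). The second probe set of Mcm2 measured 10.39, 10.62 and 11.16 in Stat3Δ/Δ pools and 10.48, 11.55 and 10.87 in control pools, a difference of -0.25 (SE 0.35), with overlap and with control pool 2 highest. The 2 probe sets of Mcm2 therefore differ in the pools they put highest.

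The other helicase subunits, Mcm3 to Mcm7, ran from -0.23 for Mcm6 to -0.48 for Mcm7, and each was highest in control pool 2. Mcm5, named after its values were seen, measured 11.18, 11.44 and 11.93 in the Stat3Δ/Δ pools, against 10.88, 12.88 and 11.77 in the control pools. The groups overlapped on either side of control pool 2.

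Cdc6, which loads the helicase onto origins, and Rrm2, the regulated subunit of ribonucleotide reductase, had the largest excess in control pool 2 and are likewise named for it. Cdc6 measured 7.89, 8.58 and 8.74 in the Stat3Δ/Δ pools, against 8.11, 10.50 and 8.42 in the control pools. Rrm2 measured 10.51, 10.72 and 10.51 in the Stat3Δ/Δ pools, against 10.07, 12.41 and 10.34 in the control pools. The excess over the mean of the other control pools was 2.24 for Cdc6 and 2.21 for Rrm2. Their differences between the groups were -0.61 (SE 0.60) and -0.36 (SE 0.57), and without control pool 2 they were 0.14 and 0.37.

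Pcna, the sliding clamp of the replication fork, ran the other way. It measured 15.24, 14.40 and 14.49 in the Stat3Δ/Δ pools, against 13.83, 14.65 and 14.03 in the control pools. The difference was 0.54 (SE 0.34, adjusted p = 0.708) and lay between 0.28 and 0.78 with 1 pool left out. The groups overlapped at control pool 2, and Stat3Δ/Δ pool 1 was the highest array. Chek1, the replication checkpoint kinase, had a difference of 0.56 (SE 0.41) by its brightest probe set.

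Tyms, thymidylate synthase, was dim on all 4 probe sets, which had both signs. The brightest had a difference of 0.71 (SE 0.48, adjusted p = 0.725), and a second measured 8.27, 7.61 and 7.48 in the Stat3Δ/Δ pools, against 6.31, 7.37 and 6.25 in the control pools (1.14, SE 0.38, adjusted p = 0.519). The remaining probe sets gave -0.27 and -0.39. In the arrays of the shared title number the brightest gave -0.29, so its direction was not settled either.

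Cyclins, kinases and checkpoint genes of G2 and mitosis had a median of -0.30, with 10 of 11 below 0, and 11 of 11 were highest in control pool 2. By probe set, 15 of 20 were highest in that pool. Some leads were narrow, such as Aurka at 9.334 against 9.328 in control pool 1 and Bub1 at 9.789 against 9.772 in Stat3Δ/Δ pool 1. Without that pool the median was -0.11, with 7 of 11 below 0.

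Cdk1, the kinase that starts mitosis, measured 9.61, 8.98 and 9.54 in the Stat3Δ/Δ pools, against 9.23, 10.45 and 9.33 in the control pools. The difference was -0.29 (SE 0.38, adjusted p = 0.863) with all pools and 0.092 without control pool 2. Birc5, survivin, a subunit of the chromosomal passenger complex, measured 9.06, 9.93 and 9.29 in the Stat3Δ/Δ pools and 9.39, 10.65 and 9.68 in the control pools (-0.48, SE 0.39, adjusted p = 0.770), and was at -0.11 without control pool 2. In both genes 1 control array stood above the rest.

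The mitotic cyclins Ccnb2 and Ccna2 are named after their values were seen. Ccnb2, cyclin B2, measured 9.49, 9.53 and 9.65 in the Stat3Δ/Δ pools, against 9.41, 11.12 and 9.24 in the control pools. Ccna2, cyclin A2, measured 9.50, 9.41 and 9.86 in the Stat3Δ/Δ pools, against 9.43, 11.14 and 10.26 in the control pools. Control pool 3 thus also lay above every Stat3Δ/Δ pool for Ccna2. Its second probe set had a difference of 0.0039, with control pool 2 highest. For Ccnb2 the other 5 arrays lay close together. Among the remaining genes of the group were the kinases Plk1, Aurka and Aurkb and the spindle checkpoint genes Bub1, Bub1b and Ttk. They ran from -0.41 for Aurkb to 0.016 for Ttk, and Plk1, Aurkb and Ttk were dim on every probe set. Cdc20, the activator of the anaphase-promoting complex, had -0.60 (SE 0.31) by its brightest probe set, with 0.08 and -0.08 by the others.

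Among motors, centromere proteins and proliferation marks the median was -0.10, with 4 of 7 below 0, and without control pool 2 it was 0.25, with 1 of 7 below 0. Control pool 1 was the lowest array for 5 of the 7.

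Mki67, the proliferation mark Ki-67, measured 10.13, 10.69 and 9.84 in the Stat3Δ/Δ pools, against 9.72, 11.37 and 10.22 in the control pools. The difference was -0.22 (SE 0.45, adjusted p = 0.923), and it was 0.25 without control pool 2 and 0.19 in the arrays of the shared title number. Top2a, the topoisomerase that separates sister chromosomes, measured 9.90, 10.38 and 9.84 in the Stat3Δ/Δ pools, against 9.07, 10.86 and 10.67 in the control pools (-0.16, SE 0.47, adjusted p = 0.954). The control values of both genes spread widely and enclosed all Stat3Δ/Δ values. The mitotic kinesins Kif11, Kif20a and Kif23 had 0.46, -0.10 and 0.19. The centromeric histone Cenpa had 0.59 and the centromere motor Cenpe -0.49. The SE of each was 0.28 to 0.50. Kif11, Kif20a and Cenpe were dim on every probe set. Probe sets of Kif11 ran from -0.28 to 0.69 and those of Cenpa from -0.36 to 0.59, so neither had a single direction.

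**Figure D3:**
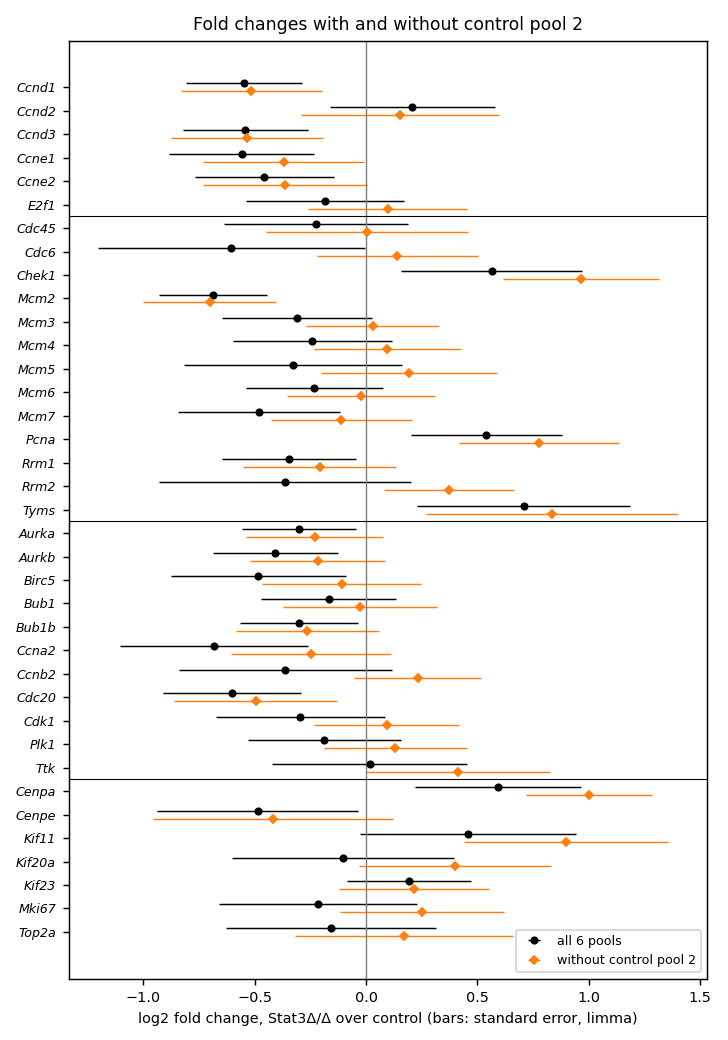
Log2 fold change, Stat3Δ/Δ over control, of each of the 37 genes (x axis, bars are the limma SE) with all 6 pools (black) and without control pool 2 (orange), grouped by role from top to bottom. Most orange points lie to the right of their black ones, and the points of Ccnd1, Ccnd3 and Mcm2 nearly coincide, at -0.55 and -0.52 for Ccnd1 and at -0.69 and -0.70 for Mcm2.

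The other genes highest in control pool 2 were looked up after its cell cycle levels were seen. Over all 18193 genes, those that led the remaining 5 arrays by the most were Rag1 and Dntt, genes of lymphocytes that are still assembling their receptors, and Cd8b1, a gene of T cells and their precursors in the thymus. Rag1, the recombinase of antigen receptor genes, measured 7.60, 7.57 and 8.40 in the Stat3Δ/Δ pools, against 6.26, 14.47 and 6.61 in the control pools. Dntt, the terminal transferase of immature lymphocytes, measured 7.55, 8.28 and 6.72 in the Stat3Δ/Δ pools, against 8.60, 13.10 and 8.67 in the control pools. Both were thus far above every other array in a single pool.

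A list of 16 genes of developing T cells was made after these values were seen. It had 15 measured members, of which 14 were highest in control pool 2. Of the 15, 5 are also in the lymphocyte marker list: Cd3d, Cd3e, Cd3g, Cd4 and Cd8a. These were the only lymphocyte markers highest in control pool 2. The others, Cd2, Cd5, Cd79a, Cd79b, Klrd1, Ms4a1 and Nkg7, were each highest in Stat3Δ/Δ pool 2 or 3. Cd8b1, a chain of the CD8 coreceptor, measured 12.66 in control pool 2 and at most 9.01 on the other arrays. The thymic chemokine receptor Ccr9 measured 12.84 there and at most 10.28 elsewhere, and the T cell receptor subunit Cd3d 13.48 and at most 11.47. Ptcra, the pre-T cell receptor chain, was dim and not highest there, at 8.15. The mean of the developing T cell list was 9.03, 9.22 and 9.25 in the Stat3Δ/Δ pools, against 8.45, 11.75 and 9.21 in the control pools.

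The list was made from what leads in that pool, so its height there is a description only. Markers of some other cell types were also highest in control pool 2: the ciliated list had means of 11.06, 11.04 and 11.38 in the Stat3Δ/Δ pools, against 11.83, 12.16 and 11.44 in the control pools. The endothelial, fibroblast and red cell lists had means of 11.23, 10.28 and 11.32 in control pool 2, each the highest of the 6 arrays. The same lists had means of 10.98, 10.07 and 10.97 in control pool 1. These leads were small beside that of the developing T cell list, at 11.75 against at most 9.25 on the other arrays. The red cell list had 3 measured genes, and 5 of the 10 fibroblast genes were dim. Type II cell markers did not single out control pool 2. Their list means were 16.31, 16.20 and 16.40 in the Stat3Δ/Δ pools and 16.39, 16.36 and 16.50 in the control pools. The part of such cells in the levels of the cell cycle genes was not tested.

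**Figure D4:**
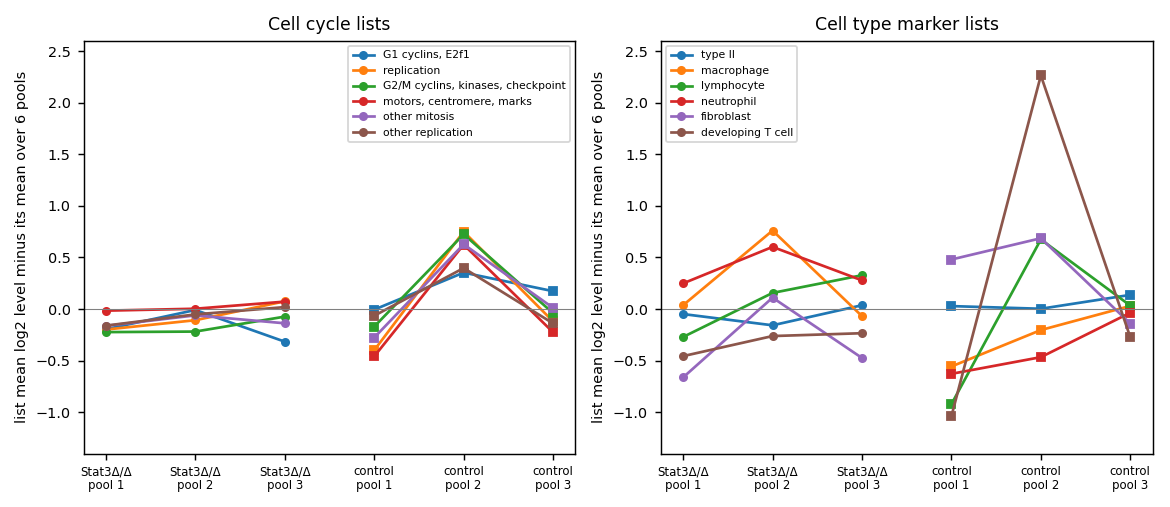
Mean log2 level of each gene list minus its own mean over the 6 pools (y axis), for cell cycle lists (left panel) and cell type marker lists (right panel) in the 3 Stat3Δ/Δ pools (circles) and the 3 control pools (squares); lines join the points of a list and stand for no order. The cell cycle lists are highest in control pool 2, as are the lymphocyte, fibroblast and developing T cell lists. The developing T cell list had a mean of 11.75 there. Of the lymphocyte markers, only the genes shared with the developing T cell list are highest there. The macrophage list peaks in Stat3Δ/Δ pool 2 at 13.51.

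A wider list of 134 other cell cycle genes, of which 132 were measured with 280 probe sets, had a median of -0.16, with 87 of 132 below 0, and of 0.0066 without control pool 2. None of its probe sets was called, and at an unadjusted p of at most 0.05 with the fold threshold 3 genes lay higher and 4 lower (2.15% and 5.54% of all genes). Its mitosis genes had 38 of 47 below 0, its replication genes 25 of 39, its G1 control genes 17 of 34 and its inhibitors 7 of 12. 7 genes had an unadjusted p of at most 0.05 in limma by their brightest probe set, and in all 7 the groups did not overlap. Over the 132 genes, 5 lay higher without overlap (4.23% of all genes) and 6 lay lower (10.2%), so separation was not particular to this list.

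Cdkn1c, the inhibitor p57 of cyclin-dependent kinases, had the smallest p of the wider list. It measured 11.06, 11.33 and 11.60 in the Stat3Δ/Δ pools, against 12.57, 12.42 and 12.48 in the control pools. The difference was -1.16 (SE 0.25, adjusted p = 0.450, limma), from -1.28 to -1.03 on dropping each pool and -1.28 in the arrays of the shared title number. The gap between the groups exceeded the spread within either, yet the adjusted p did not pass.

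E2f2, a further activating E2F, measured 10.27, 10.48 and 10.32 in the Stat3Δ/Δ pools, against 11.70, 11.61 and 10.90 in the control pools (-1.05, SE 0.29, adjusted p = 0.482). E2f7, a repressing E2F, measured 8.53, 8.58 and 8.58 in the Stat3Δ/Δ pools and 9.21, 9.72 and 9.05 in the control pools (-0.76, SE 0.27, adjusted p = 0.529). Both lay lower on all Stat3Δ/Δ arrays. In the arrays of the shared title number they were at -0.53 and -0.50.

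Myc, the growth-promoting transcription factor, lay higher on all Stat3Δ/Δ arrays, at 13.56, 13.35 and 13.58, against 12.56, 12.79 and 13.08 in the control pools (0.69, SE 0.26, adjusted p = 0.545), and at 0.37 within the shared number. Orc4, a subunit of the origin recognition complex, measured 11.07, 11.33 and 10.72 in the Stat3Δ/Δ pools, against 10.23, 10.62 and 10.25 in the control pools (0.67, SE 0.27, adjusted p = 0.567). For these genes the groups were separated, if narrowly. Dlgap5, a spindle protein, at 0.87 and Pole, the catalytic subunit of a replicative polymerase, at -1.45 were dim. Ccnd1 and Myc, named above as Stat3 targets in other cells, thus lay on opposite sides.

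**Figure D5:**
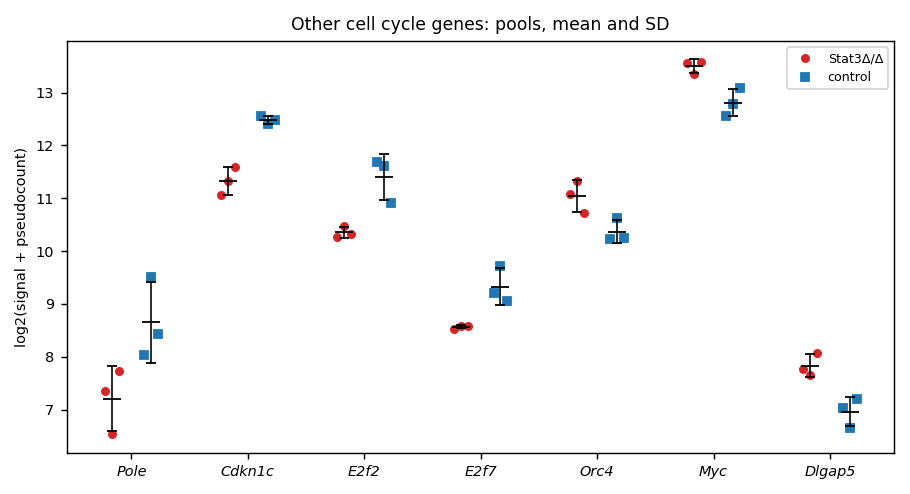
The 7 genes of the wider cell cycle list with an unadjusted p of at most 0.05 (x axis), as log2(signal + pseudocount) in each Stat3Δ/Δ pool (red circles, left) and each control pool (blue squares, right), with the mean and SD of the 3 pools in black. Pole, Cdkn1c, E2f2 and E2f7 lie lower and Orc4, Myc and Dlgap5 higher in Stat3Δ/Δ pools, with adjusted p-values from 0.450 to 0.567.

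Stat3 itself measured 14.82, 14.34 and 14.60 in the Stat3Δ/Δ pools, against 15.45, 15.32 and 15.13 in the control pools, on the brightest of 4 probe sets (-0.71, adjusted p = 0.532). The groups did not overlap there or on the second probe set (-0.80), while the others gave -0.046 and 0.60; which of them read the deleted exon was not analysed here. Arrays had been scaled alike, and their median signals were 381.2, 348.7 and 337.7 in the Stat3Δ/Δ pools and 282.8, 308.3 and 360.5 in the control pools.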

How the data were processed

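Per the file headers and the study's methods, the authors quantified each MOE430 array with Affymetrix Microarray Suite 5.0; the deposited intensity values are linear MAS5 signals, scaled to a like mean on each array. The normalized values the methods describe were not used here. Signals plus a pseudocount of 69.9 were taken to log2, quantile normalized and fitted with limma 3.58.1 in R 4.3.3 (group as the term, empirical Bayes variances), with Benjamini-Hochberg adjustment over 45037 probe sets, 64 control probe sets left out. A platform table named 34945 probe sets with 1 gene symbol, 932 with several and 9160 with none. The fit was tested on simulated data. The members and lists were chosen with earlier results of these data known, and the list of developing T cell genes after control pool 2 had been seen. Named genes were 9 standard cell cycle genes, members with an unadjusted p of at most 0.05 or no overlap, members with probe sets of both signs where at least 1 of them met that p, and up to 8 genes of the wider list by p; others are marked as named after their values were seen. Pools are separate cell isolates, so p-values measure the spread between pools of 3 mice, and the number of arrays, 3 in each group, limits the precision. The alternatives were another or no pseudocount, no normalization, median centring, dim probe sets left out, the mean of a gene's probe sets, a variance trend, array weights, the methods' t-test, blocks and each pool left out.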

Additional observations from a re-analysis of the deposited data

How the results depend on the processing

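None of the 93 probe sets was called under any alternative that tested them. The count of probe sets that lay higher (3) was 1 with the pseudocount at the median signal, 0 with dim probe sets left out, 0 by the methods' t-test and 1 to 4 with 1 pool left out. The count that lay lower (5) was 8 with array weights, 3 by the methods' t-test and 3 to 7 with 1 pool left out. The median of the G1 group (-0.50) was -0.36 with the larger pseudocount and -0.26 with the mean of all probe sets of a gene. It was -0.31 with the first number of the titles as a fixed block or within the arrays that share it. With 1 pool left out it was -0.49 to -0.34. That of the motors and marks (-0.10) ran from -0.26 to 0.25. That of the 37 genes ran from -0.49 to 0.092, with 0.092 reached without control pool 2. Centring arrays on their medians moved the median of all genes to -0.18 and that of the 37 to -0.35.

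Reversed directions, of values that passed no test, were those of Ccnd2 (-0.16 to 0.52 with 1 pool left out), Cdk1 (-0.51 to 0.092), E2f1 (-0.49 to 0.098), Mki67 (-0.57 to 0.25, and 0.19 with the fixed block and within the shared number), Top2a (-0.71 to 0.17) and Tyms (-0.29 with the fixed block and within the shared number). In Cdk1, E2f1, Mki67 and Top2a the turn came without control pool 2, in Top2a also without control pool 3 (0.077), and in Ccnd2 without Stat3Δ/Δ pool 2. By brightest probe set or probe set mean, the other 12 of 18 named genes kept their direction under every alternative run, Ccnd1 and Mcm2 among them. The second probe set of Mcm2 did not: it ran from -0.48 to 0.044 with 1 pool left out, and turned without control pool 2.

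With the replicate block 0 probe sets were called, 2 lay higher and 5 lower, and the median of the 37 genes was -0.30. Pools of the same replicate number shared only that number: the correlations of their deviations from the group means were -0.084, -0.0088 and -0.24. For control pool 3 and the Stat3Δ/Δ pools of the same title number they were 0.13 (pool 1) and 0.14 (pool 2). The largest, 0.19, was that of Stat3Δ/Δ pool 3 and control pool 1, whose title numbers differ.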

Other observations

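After the genes given above, the next 3 by their lead in control pool 2 over the remaining arrays were Syt13, Tubb2b and Uhrf1, named after their values were seen. Syt13, a synaptotagmin, led the next highest array by 3.23. Tubb2b, a beta tubulin, measured 9.14, 10.33 and 9.81 in the Stat3Δ/Δ pools, against 10.17, 12.93 and 10.26 in the control pools. Uhrf1, which keeps up DNA methylation during replication, measured 8.98, 9.12 and 9.35 in the Stat3Δ/Δ pools, against 9.08, 11.82 and 9.26 in the control pools. In each of them control pool 2 alone stood above the other arrays.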
